A study of Homo sapiens with 108 samples.

Results

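The mRNAs for cholesterol and fatty-acid synthesis that answer to the sterol regulatory element-binding proteins (SREBPs) were followed here in HEK293T, a transformed line from human embryonic kidney. The set held 33 members of 19761 genes with reads counted in 3′ UTRs. They were named gene by gene with no measured value in the rule, but were chosen with earlier results of these data known. By role, 7 members act in the mevalonate and isoprenoid steps, 12 in the squalene and sterol steps, 6 in SREBP control and sterol transport, and 8 in fatty-acid synthesis. Cells carried a lentiviral short hairpin RNA (shRNA) against ZMAT3, ZMAT5, ZNF706, ZFP36L1, CNOT4, PHF7, MAZ or BRCA1, or a non-targeting hairpin (NT), and all arms were selected with puromycin. Every arm, NT included, was kept in 10 µM 4-thiouridine (4SU) for 24 h with new medium every 8 h, and was then moved to fresh medium with 1 mM uridine for 0, 2, 4 or 8 h of chase. With 3 replicates at each of 4 chase times, each of the 9 arms has 12 libraries, and the study's methods describe the replicates as biological. The series asked how zinc-finger proteins act on mRNA lifetime, and SLAM-seq was the assay: 4SU taken into RNA is alkylated and then read as C, so labeled transcripts carry T>C conversions. The cells are selected pools and not clones, and the number of hairpins used per gene is not given in the labels.

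SREBPs are made as membrane proteins of the endoplasmic reticulum, where SCAP and the INSIG proteins hold them while sterols are plentiful. When membrane sterols fall, SCAP carries SREBP to the Golgi, proteases free its N-terminal part, and this factor enters the nucleus and binds sterol response elements in the promoters of most genes described here, often beside a CCAAT box bound by NF-Y. SREBF2 codes for the form that acts mainly on cholesterol genes, and SREBF1 for the forms that act mainly on fatty-acid genes. Cultured cells take sterols and fatty acids from serum, so medium changes bear on this pathway.

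The level of each mRNA is given in TMM-normalized CPM, reads scaled to a common library size and so a share of the library, so less mRNA per cell and fewer cells with the mRNA cannot be told apart. Libraries held 63659 to 30750027 reads in 3′ UTRs, with a median of 14870063, and 2 libraries were under 2000000. The shallowest, PHF7 8 h replicate 3, had 0 CPM for many members, and values without it are given where it touches a result. Libraries labeled CNOT4 covered 27.7 to 34.0 T positions per read and libraries labeled ZFP36L1 25.9 to 33.04, against 37.1 to 37.8 in NT libraries, and in these labels multimapped reads made up 5.82% to 11.9% and 9.21% to 12.4%, against 6.66% to 6.91% in NT libraries. Within CNOT4 the 8 h tables, whose headers say pulse-chase where the other tables say chase, stood apart, with 5.82% to 5.91% multimapped reads and 32.5 to 34.0 T positions per read, against 9.34% to 11.9% and 27.7 to 31.3 at 0 to 4 h. The part of these differences in the results was not tested, and in CNOT4 they cannot be told apart from the 8 h chase in decay, half-life and label left at 8 h. The targeted mRNA was lower than in NT by the edgeR test in the MAZ, ZMAT3, ZMAT5 and ZNF706 knockdowns, at 10.4% to 48.9% of NT. It did not pass in BRCA1 (53.4% of NT, adjusted p = 0.22), PHF7 (23.8%, adjusted p = 0.336) or CNOT4 (97.5%, adjusted p = 0.954), and ZFP36L1 mRNA was higher in its own libraries (174% of NT, adjusted p = 0.00233). Arms are therefore named by their labels, and CNOT4 and ZFP36L1 below mean the libraries so labeled. Of the kidney-line markers, EYA1 was read in 11 of 12 NT libraries, PAX2 had no read in 10 and LHX1 none in 6. Markers of blood, fibroblast, liver, endothelial and muscle cells summed to 2.86 to 40.6 CPM over the 12 NT libraries, most of it COL1A1, and 7 of the 11 markers had no read there. Over the knockdown libraries these sums were 0 to 48.2 CPM, apart from 267 CPM in the shallow PHF7 library.

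Promoter and 3′ UTR letters of members that the results turn on are shown first. RefSeq promoter entries (GRCh38.p14, 250 bases before to 50 after the start) matched 29 of 33 members, and SQLE, FASN, ACAT2 and FDFT1 are named only. A gene could have several entries and was counted where any entry matched. Genes with more entries thus had more chances to match, and different letters of the same gene can lie in different promoters. A form of the sterol response element, TCACNCNAC on either strand, stood in a promoter of 5 of 29 members (17.2%), against 3.13% of 27305 genes. These 5 windows are shown because they carry the letters by which SREBP-bound promoters are known, and the capitals mark the element.
FDPS, chr1:155308718-155308742, plus strand: cgccatgcTCACACGACggccagca
HSD17B7, chr1:162790596-162790620, plus strand: ggcctatcTCACCCGACgccgtctc
FADS2, chr11:61815975-61815999, plus strand: tccagtctTCACACGACgcaggggt
ACSS2, chr20:34876366-34876390, plus strand: ttctgcttTCACTCGACggcgtcac
SREBF2, chr22:41832964-41832988, plus strand: acgcgccaTCACCCCACgcaccgct

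The CCAAT box, searched on both strands, stood in a promoter of 21 of 29 members (72.4%), against 39.7% of genes. The windows of 5 members whose level moved in the knockdowns are shown, with CCAAT in capitals and each printed along the strand that reads CCAAT.
SCD, chr10:100346996-100347016, plus strand: gcgccgagCCAATggcaacgg
ACLY, chr17:41919075-41919095, plus strand: ggctcctcCCAATtcgctgct
EBP, chrX:48521609-48521629, minus strand: atccgtagCCAATctgcatcg
INSIG1, chr7:155297700-155297720, minus strand: ggccgcaaCCAATgggaggcc
HMGCS1, chr5:43313555-43313575, plus strand: ggcttctaCCAATcaaaagga

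The letters GGGAGGG, the core of the G-rich box that the factor MAZ is known to bind, stood on either strand in a promoter of 14 of 29 members (48.3%), against 29.4% of genes. Of the 5 members that passed the level test in the MAZ knockdown, FDPS had this match, LBR had none, and SQLE, FASN and FDFT1 had no promoter entry. The FDPS window is shown, with the box in capitals.
FDPS, chr1:155308792-155308814, minus strand: gtgcccgcGGGAGGGacagataa

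The heptamer TATTTAT, the core letters of the AU-rich elements that ZFP36-family proteins are known to bind, was searched on the sense strand in the last 200 bases of the 3′ UTR interval that holds most reads of a gene. It stood in 4 of 32 members (12.5%), which were ACLY, SC5D, STARD4 and SREBF1, against 8.41% of 16223 genes. Over the whole interval the heptamer also stood in FDFT1, CYP51A1, INSIG1, FASN and ACACA, a search with no share over all genes. The sites of ACLY and SC5D within the last 200 bases are shown with the heptamer in capitals, as the level of both moved in the knockdowns. A match to any of these letters is a description of the sequence and not a site of binding.
ACLY, chr17:41867068-41867090, minus strand: gttctctgTATTTATgcagctga
SC5D, chr11:121308588-121308610, plus strand: ctataagcTATTTATgtaaaatc

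All 33 members passed the low-count filter in all 8 comparisons of level. A member was called where edgeR gave a Benjamini-Hochberg adjusted p under 0.05 over all genes tested and a fold change over 1.2. Over the 8 knockdowns, 20 members were called at least once and 13 never, and 14 were lower and 9 higher at least once. Of 12482 genes tested in all 8, 49.7% were called at least once, 27.6% lower and 29.2% higher, so a call in at least 1 knockdown was common for genes of every kind, most of all through ZFP36L1 and CNOT4. SQLE was lower in 7 of 8 knockdowns, where 0.224% of genes were lower in at least 7. LBR, ACLY and SCD were lower in 4, where 2.73% of genes were lower in at least 4, and FDPS and FADS1 were higher in 3. SC5D, SCAP and FASN were called both ways in different knockdowns. All 8 comparisons share the 12 NT libraries, so a count over knockdowns is not a count of independent results. The members were chosen with earlier results of these data known, so shares of members beside shares of all genes are a description and not a test. The map of log2 fold changes shows SQLE as the row with most calls and ZFP36L1 and CNOT4 as the columns with most.

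**Figure D1:**
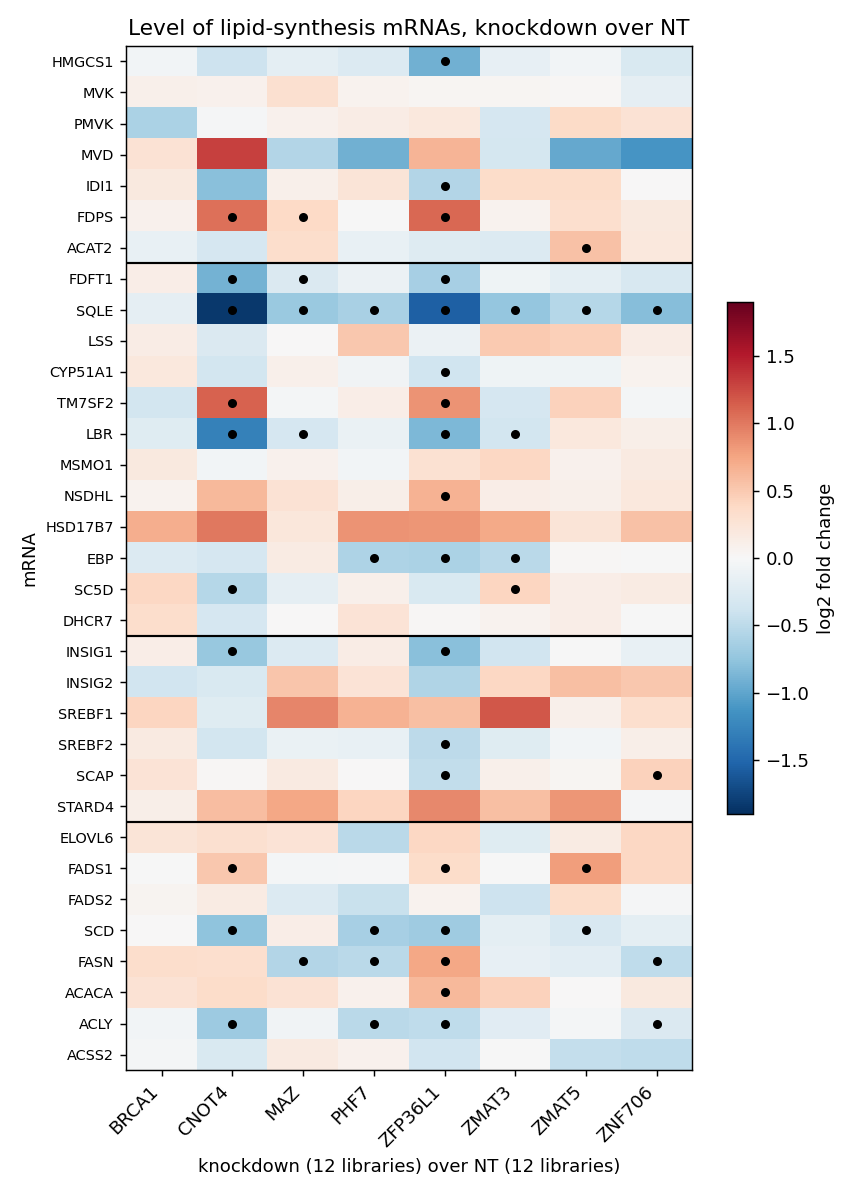
Log2 fold change of each of the 33 mRNAs (rows) in each knockdown over NT (columns, 12 libraries against 12), with a dot where the mRNA was called (edgeR adjusted p under 0.05 and fold over 1.2) and lines between the mevalonate and isoprenoid, squalene and sterol, SREBP control and transport, and fatty-acid groups from top to bottom. SQLE has a dot in 7 of 8 columns, and BRCA1 has none.

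The count of members called was read against the share of all genes called in the same comparison. In the libraries labeled ZFP36L1, 12 members were lower and 6 higher, where 18.3% and 21.7% of 13253 genes were, and in those labeled CNOT4, 7 were lower and 3 higher, where 13.5% of 13308 genes were called in each direction. The member median was log2 −0.11 in ZFP36L1, against 0.15 over all genes, and −0.27 in CNOT4, against 0.08 over all genes. Of the 33 members, 17 were below 0 in ZFP36L1 and 20 in CNOT4, against 42.5% and 46.9% of all genes. The 8 fatty-acid members had medians of 0.21 and 0.23. The 24 other genes of lipid synthesis and sterol handling had medians of −0.11 in ZFP36L1 and −0.31 in CNOT4. Without the 8 h libraries, 8 members were called in CNOT4, where 1190 of 12978 genes were higher and 1294 lower.

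In PHF7, 5 members were lower and none higher, against 4.53% and 3.89% of 13324 genes. With 1 replicate left out, 0 to 4 were called, and over all genes 74 to 624 were higher and 176 to 580 lower. In MAZ, 4 were lower and 1 higher, against 3.55% and 5.19% of 13398 genes. In ZMAT3, 3 were lower and 1 higher, against 4.75% and 5.49% of 13307 genes. These 3 knockdowns each moved a few members, with member medians of log2 −0.0030 in PHF7, 0.08 in MAZ and −0.08 in ZMAT3, against 0.07, 0.08 and 0.09 over all genes.

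In ZNF706, 3 members were lower and 1 higher, against 2.29% and 2.85% of 13072 genes. In ZMAT5, 2 were lower and 2 higher, against 4.22% and 5.29% of 13149 genes. In BRCA1, no member was called, against 0.0393% of 12735 genes in each direction. There 4 members had an unadjusted edgeR p under 0.05, a count not made over all genes. The member median in BRCA1 was log2 0.11, against −0.03 over all genes, the highest of the 8 knockdowns. In these 3 arms most members kept levels whose difference from NT did not pass the test.

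The mevalonate and isoprenoid steps build the activated isoprene units from acetyl-CoA, and 4 of their 7 members were called at least once (49.7% of all genes). FDPS, the farnesyl diphosphate synthase whose promoter carries the element and the G-rich box shown above, had 80.9, 145.9 and 221.5 CPM (lowest, median and highest of 12 libraries) in libraries labeled CNOT4, 124.6, 150.6 and 191 in ZFP36L1 and 71.7, 90.8 and 111 in MAZ, against 44.2, 70.1 and 99.95 in NT. The ZFP36L1 libraries lay wholly above NT, and the CNOT4 and MAZ libraries overlapped it. FDPS rose by log2 1.09 in ZFP36L1 (SE 0.119, edgeR adjusted p = 2.59e-09), by 1.04 in CNOT4 (SE 0.148, adjusted p = 1.94e-06) and by 0.37 in MAZ (SE 0.119, adjusted p = 0.0387). Most FDPS reads (94.8%) fell in a single interval of 59 bases. In MAZ the call held in 4 of 12 alternative analyses, and against the mean of the other 7 knockdowns the value was −0.03. Alternatives counted here and below include the test without the fold minimum, which cannot remove a call.

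HMGCS1, the cytosolic HMG-CoA synthase, fell in the libraries labeled ZFP36L1 (55.2 ± 8.55 CPM, against 103.8 ± 27.2 in NT, SD, n = 12 each, log2 −0.91), as did IDI1, which interconverts the activated isoprenes (57.8 ± 10.3 CPM, against 84.8 ± 16.9 in NT, log2 −0.56). ACAT2, the thiolase of the first step, rose in ZMAT5 (202 ± 25.7 CPM, against 137.4 ± 37.9 in NT, log2 0.56, SE 0.123, edgeR adjusted p = 0.00152), and its counted bases overlap those of TCP1 on the other strand. The kinases MVK and PMVK and the decarboxylase MVD passed in no knockdown. MVD, at 8.17 ± 5.75 CPM in NT, ranged from log2 −1.12 in ZNF706 to 1.30 in CNOT4, and its lowest adjusted p was 0.0516.

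The squalene and sterol steps join isoprenes into squalene and close and trim the sterol rings, and 8 of their 12 members were called at least once (49.7% of all genes). SQLE, squalene epoxidase, catalyzes the first oxygen step and is a known control point of the pathway. Nearly all its reads (99.99%) fell in 1 interval on chromosome 8, 125021944 to 125022283 (hg38, plus strand). It had 22.8, 39.7 and 57.7 CPM (lowest, median, highest) in libraries labeled CNOT4, 30.4, 48.4 and 70.1 in ZFP36L1, 58.9, 86.2 and 123.5 in MAZ and 0, 95.7 and 116.8 in PHF7, against 82.4, 126.6 and 262.8 in NT. It had 58.2, 90.6 and 118.7 CPM in ZMAT3, 61.6, 92.8 and 138.2 in ZMAT5, 55.5, 80.1 and 122 in ZNF706 and 76.8, 121.2 and 201.1 in BRCA1. The CNOT4 and ZFP36L1 libraries lay wholly below NT, the other 6 overlapped it, and in PHF7 the value of 0 is the shallow library, without which PHF7 had 72.0, 96.3 and 116.8 CPM.

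SQLE fell by log2 1.84 in the libraries labeled CNOT4 (SE 0.191, edgeR adjusted p = 6.4e-09), to 27.9% of NT, and by 1.56 in those labeled ZFP36L1 (SE 0.153, adjusted p = 2.45e-10), to 34.0% of NT. It fell by 0.80 in ZNF706 (SE 0.158, adjusted p = 0.000793), by 0.73 in ZMAT3 (SE 0.143, adjusted p = 0.000554) and by 0.71 in MAZ (SE 0.142, adjusted p = 0.00077). It fell by 0.62 in PHF7 (SE 0.194, adjusted p = 0.0428) and by 0.54 in ZMAT5 (SE 0.147, adjusted p = 0.012), and the BRCA1 value was −0.17, with no call. These 7 calls rest on 1 shared set of NT libraries. Against the mean of the other 7 knockdowns SQLE was above 0 in 5 of these arms, at log2 0.36 in ZMAT5, 0.29 in PHF7, 0.19 in MAZ, 0.15 in ZMAT3 and 0.0718 in ZNF706.

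With the BRCA1 libraries as the comparison, an alternative added after the data were seen, SQLE was lower at log2 −1.67 in CNOT4, −1.37 in ZFP36L1, −0.63 in ZNF706, −0.56 in ZMAT3 and −0.54 in MAZ, all passing by edgeR, while PHF7 (−0.46, adjusted p = 0.149) and ZMAT5 (−0.38, adjusted p = 0.138) did not pass. Without the shallow library all 5 PHF7 calls held, SQLE at log2 −0.54 (adjusted p = 0.0107), SCD at −0.57, EBP at −0.55, FASN at −0.45 and ACLY at −0.42. Without replicate 1, the SQLE call was lost in MAZ (−0.52, adjusted p = 0.0551), ZNF706 (−0.56, adjusted p = 0.104), ZMAT5 (−0.43, adjusted p = 0.161) and PHF7 (−0.52, adjusted p = 0.372). In PHF7 it was also lost without replicate 2 (−0.80, adjusted p = 0.161) and without replicate 3 (−0.51, adjusted p = 0.0692), and in ZMAT5 without replicate 2 (−0.55, adjusted p = 0.0661). The calls in CNOT4 and ZFP36L1 held in every alternative analysis that was run.

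LBR, the lamin B receptor, is a protein of the inner nuclear membrane that also reduces sterols, counted on chromosome 1 at 225401503 to 225403305 (minus strand). It had 87.5, 165.4 and 336.5 CPM (lowest, median, highest) in libraries labeled CNOT4, 178.9, 238.1 and 297 in ZFP36L1, 248.3, 348.8 and 436.2 in MAZ and 282.2, 322.4 and 445.1 in ZMAT3, against 369.1, 416.6 and 479.9 in NT. In the arms with no call it had 264, 357.2 and 487.2 CPM in BRCA1, 354.5, 388.5 and 475.1 in PHF7, 405.5, 483.1 and 580.6 in ZMAT5 and 374.1, 465.5 and 562.6 in ZNF706. The CNOT4 and ZFP36L1 libraries again lay wholly below NT. LBR fell by log2 1.28 in CNOT4 (SE 0.138, edgeR adjusted p = 1.42e-08), by 0.86 in ZFP36L1 (SE 0.0673, adjusted p = 1.04e-12), by 0.35 in ZMAT3 (SE 0.0603, adjusted p = 0.000132) and by 0.32 in MAZ (SE 0.0678, adjusted p = 0.00178). The call held in 9 of 12 alternative analyses in ZMAT3 and in 8 of 12 in MAZ, and against the mean of the other 7 knockdowns the values were 0.0036 and 0.0478. TM7SF2, the other sterol reductase of this step, moved the opposite way in the same 2 labels, at log2 1.12 in CNOT4 and 0.85 in ZFP36L1, from few reads (30.5 ± 16.8 and 24.4 ± 6.76 CPM, against 13.7 ± 9.22 in NT). With 1 replicate left out TM7SF2 was at 0.82 to 1.66 in CNOT4 and 0.47 to 1.42 in ZFP36L1, and the call held in 7 of 13 and 8 of 12 alternative analyses.

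**Figure D2:**
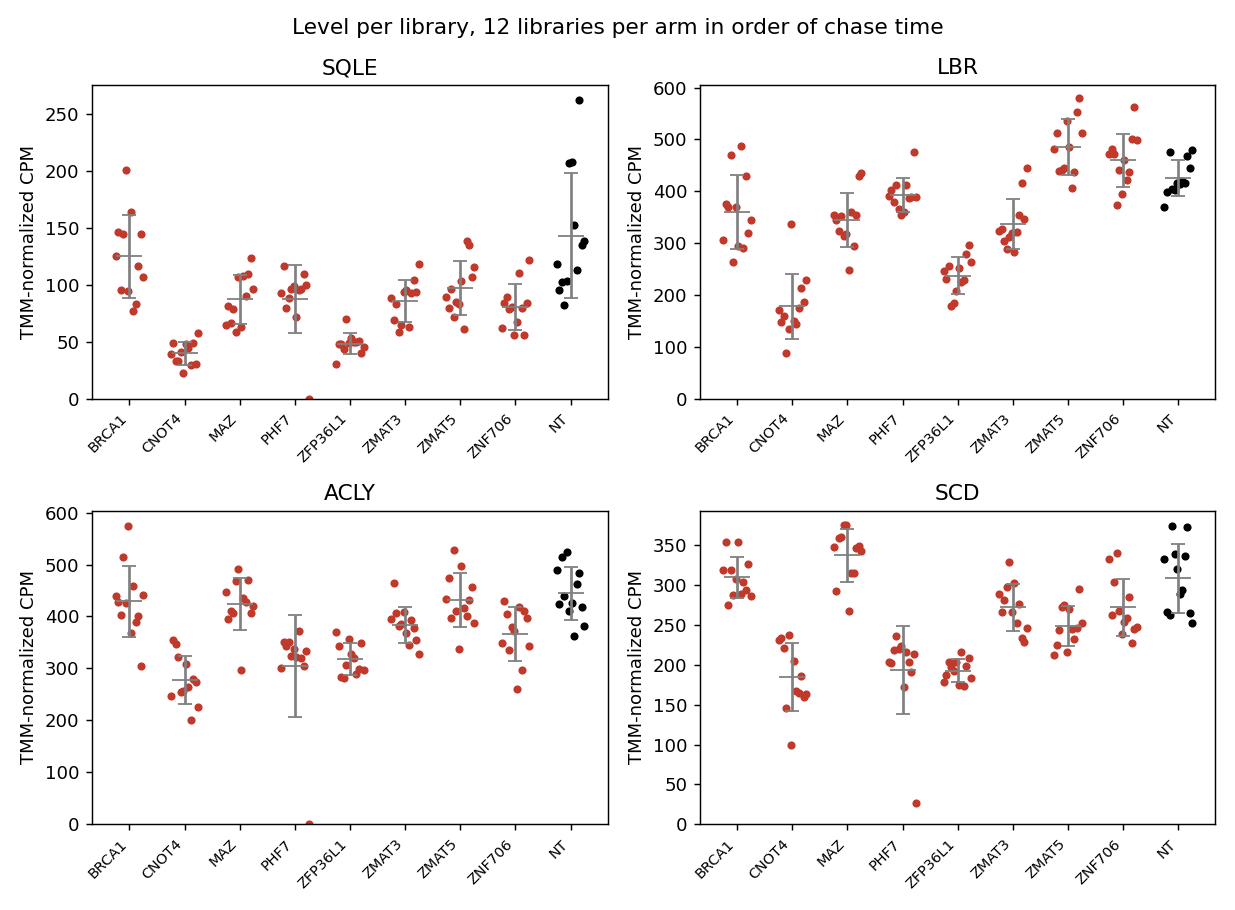
TMM-normalized CPM per library of SQLE, LBR, ACLY and SCD, with the 12 libraries of each knockdown in red and of NT in black, in order of chase time within an arm, and grey bars at the mean ± SD. The CNOT4 and ZFP36L1 libraries of SQLE and LBR lie below every NT library, and the points at 0 or near it in PHF7 are the library with 63659 reads.

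FDFT1, the squalene synthase, fell by log2 0.90 in CNOT4 (96.0 ± 21.0 CPM, against 176.5 ± 30.2 in NT, SE 0.143, edgeR adjusted p = 1.15e-05), with no overlap of the libraries. It also fell by 0.63 in ZFP36L1 and by 0.28 in MAZ (SE 0.0899, adjusted p = 0.0426), where the call held in 5 of 12 alternative analyses. EBP, the sterol isomerase, fell by 0.58 in PHF7 (102.8 ± 20.7 CPM, against 155.4 ± 29.3 in NT, SE 0.126, adjusted p = 0.00256), by 0.50 in ZMAT3 (SE 0.0994, adjusted p = 0.000626) and by 0.60 in ZFP36L1. CYP51A1, the lanosterol demethylase, fell by 0.39 in ZFP36L1, and NSDHL, a sterol dehydrogenase, rose there by 0.67.

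SC5D, the sterol desaturase whose AU-rich heptamer is shown above, was called in opposite directions. It had 93.9, 108.6 and 138.2 CPM (lowest, median, highest) in ZMAT3 and 28.9, 58.8 and 110.7 CPM in libraries labeled CNOT4, against 51.4, 90.1 and 115.8 in NT, so both arms overlapped NT. The log2 value was 0.41 in ZMAT3 (SE 0.113, edgeR adjusted p = 0.0138) and −0.54 in CNOT4 (adjusted p = 0.0296), and each call held in 7 alternative analyses, of 12 and of 13. Lanosterol synthase (LSS), MSMO1, HSD17B7 and DHCR7 were called in no knockdown. LSS and HSD17B7 were read mostly or in part from multimapped reads (98.7% and 34.1%), so their values cannot be assigned to these genes alone.

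In the SREBP control group, 3 of 6 members were called at least once (49.7% of all genes). INSIG1, which retains SCAP when sterols are plentiful and is itself an SREBP target, fell in libraries labeled ZFP36L1 (61.4, 80.4 and 89.8 CPM, lowest, median and highest) and CNOT4 (62.9, 83.4 and 122.6 CPM), against 66.9, 135.7 and 210.7 CPM in NT. The log2 values were −0.79 and −0.72, and the libraries of both labels overlapped the low end of NT. SREBF2 fell in ZFP36L1 (43.9 ± 6.78 CPM, against 63.6 ± 19.4 in NT, log2 −0.50). SCAP fell in ZFP36L1 (77.0 ± 17.3 CPM, against 106.1 ± 25.4 in NT, log2 −0.46) and rose in ZNF706 (142.9 ± 20.7 CPM, log2 0.44, SE 0.123, edgeR adjusted p = 0.0248). INSIG2, SREBF1 and the sterol carrier STARD4 had 5.33 to 15.6 CPM in NT and were called nowhere. SREBF1, whose counted bases overlap those of RAI1, reached log2 1.18 in ZMAT3, with a lowest adjusted p of 0.254.

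The fatty-acid group turns citrate and acetate into acetyl-CoA, builds palmitate and then lengthens and desaturates it, and 5 of its 8 members were called at least once (49.7% of all genes). ACLY, ATP citrate lyase, links citrate to cytosolic acetyl-CoA for both pathways, and its promoter CCAAT box and heptamer are shown above. It had 200.2, 269.6 and 353.9 CPM (lowest, median, highest) in libraries labeled CNOT4, 281.3, 313.5 and 370.8 in ZFP36L1, 0, 328.9 and 371.2 in PHF7 and 261.3, 375.1 and 430.3 in ZNF706, against 363.4, 432.1 and 523.9 in NT. In the arms with no call it had 305.4, 427 and 574.9 CPM in BRCA1, 296.2, 424 and 491.7 in MAZ, 326.9, 382.9 and 463.7 in ZMAT3 and 336.8, 424.3 and 527.5 in ZMAT5. All CNOT4 libraries were below NT, and without the shallow library the lowest PHF7 value was 300.8 CPM.

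ACLY fell by log2 0.69 in CNOT4 (SE 0.0962, edgeR adjusted p = 1.35e-06), by 0.51 in PHF7 (SE 0.16, adjusted p = 0.0423), by 0.48 in ZFP36L1 (SE 0.0722, adjusted p = 1.33e-06) and by 0.28 in ZNF706 (SE 0.0786, adjusted p = 0.0246). The call held in all 13 alternative analyses in CNOT4, in 11 of 12 in ZFP36L1, in 8 of 13 in PHF7 and in 6 of 12 in ZNF706. ACSS2, which makes acetyl-CoA from acetate, was called nowhere (log2 −0.48 to 0.16).

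SCD, stearoyl-CoA desaturase, which makes oleate and palmitoleate, had 99.4, 176.6 and 237.8 CPM (lowest, median, highest) in libraries labeled CNOT4, 173, 194.6 and 216 in ZFP36L1, 27.1, 208.5 and 236.6 in PHF7 and 212.2, 245.9 and 295.6 in ZMAT5, against 253, 307.1 and 374.2 in NT. It had 275.7, 305.9 and 354.5 CPM in BRCA1, 267.5, 347.4 and 376.1 in MAZ, 229.3, 271.3 and 329.2 in ZMAT3 and 227.2, 260.8 and 340.1 in ZNF706, with no call. In CNOT4, ZFP36L1 and PHF7 every library was below every NT library, also with the shallow PHF7 library left out (172.1 to 236.6 CPM). SCD fell by log2 0.76 in CNOT4 (SE 0.124, edgeR adjusted p = 1.7e-05), by 0.68 in ZFP36L1 (SE 0.0773, adjusted p = 6.61e-09), by 0.63 in PHF7 (SE 0.128, adjusted p = 0.00128) and by 0.30 in ZMAT5 (SE 0.0805, adjusted p = 0.0103). Against the mean of the other 7 knockdowns the ZMAT5 value was 0.01.

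FASN, the fatty-acid synthase, was called in both directions. It had 189.9, 257.3 and 324.4 CPM (lowest, median, highest) in libraries labeled ZFP36L1, 66.2, 99.7 and 192.9 in MAZ, 9.03, 108.8 and 133.3 in PHF7 and 73.6, 91.0 and 261.6 in ZNF706, against 79.9, 146.9 and 223.4 in NT. All 4 arms overlapped NT. FASN rose by log2 0.73 in ZFP36L1 (SE 0.11, edgeR adjusted p = 1.29e-06) and fell by 0.55 in MAZ (SE 0.133, adjusted p = 0.00548), by 0.51 in PHF7 (SE 0.151, adjusted p = 0.0307) and by 0.48 in ZNF706 (SE 0.144, adjusted p = 0.0381). In CNOT4, where ACLY and SCD were lower as in ZFP36L1, FASN was at log2 0.32 and was not called.

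FADS1, a desaturase of polyunsaturated fatty acids, rose by log2 0.79 in ZMAT5 (139 ± 18.1 CPM, against 81.5 ± 19.3 in NT, SE 0.124, edgeR adjusted p = 1.34e-05), by 0.51 in CNOT4 and by 0.36 in ZFP36L1. The FADS1 call held in 11 of 12 alternative analyses in ZMAT5, in 7 of 13 in CNOT4 and in 6 of 12 in ZFP36L1. ACACA, the acetyl-CoA carboxylase that commits carbon to fatty acids, rose by 0.62 in ZFP36L1 (51.2 ± 5.70 CPM, against 33.4 ± 12.6 in NT), but 99.8% of its reads were multimapped. ELOVL6 and FADS2 were called nowhere, with log2 values of −0.51 to 0.39 and −0.43 to 0.35. The plot of FDPS, FADS1, FASN and SC5D shows members that did not follow SQLE.

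**Figure D3:**
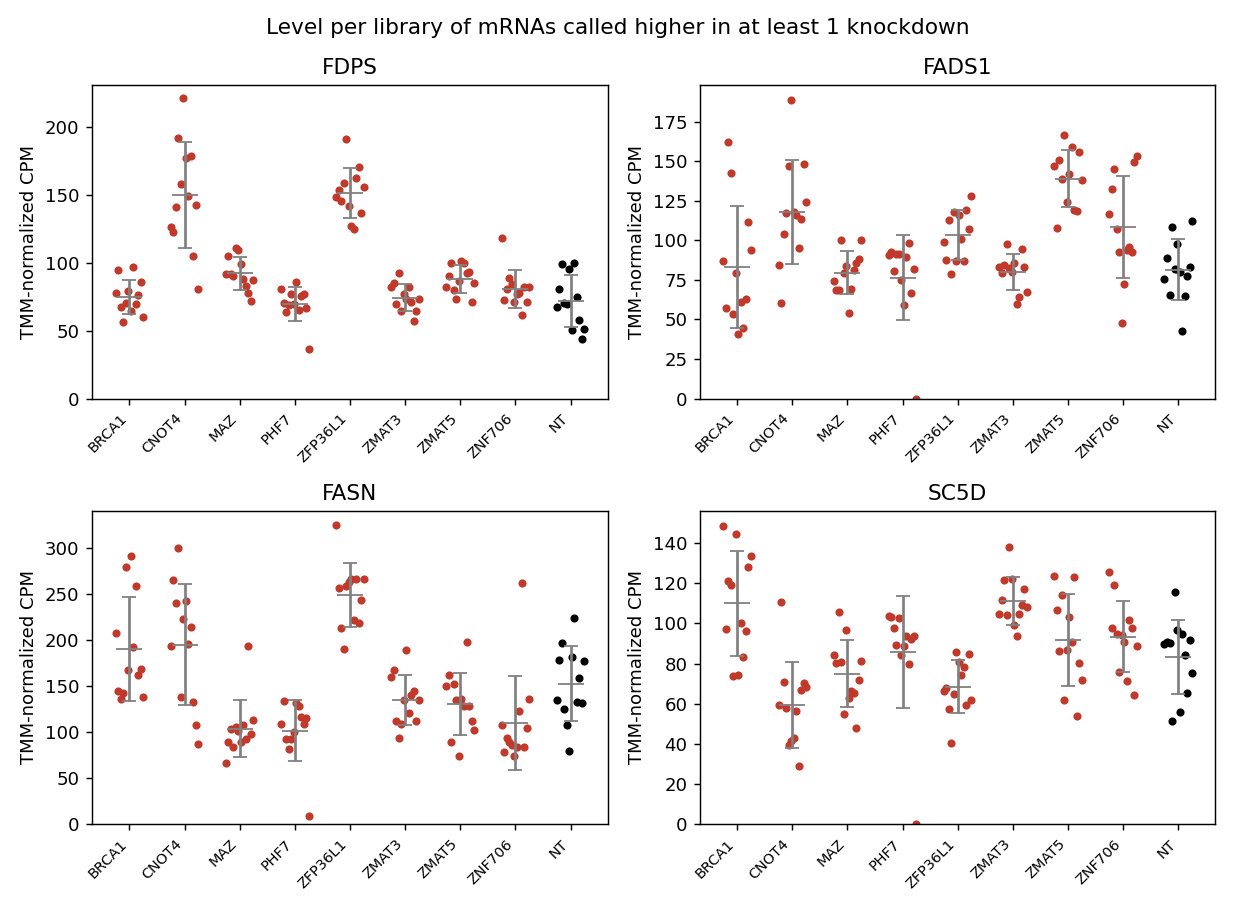
TMM-normalized CPM per library of FDPS, FADS1, FASN and SC5D, with 12 libraries per knockdown in red and 12 NT libraries in black, in order of chase time, and grey bars at the mean ± SD. FDPS in ZFP36L1 lies above all NT libraries, FADS1 is highest in ZMAT5, and FASN is above the NT mean in ZFP36L1 and below it in MAZ, PHF7 and ZNF706.

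The 13 members never called had 5.33 to 75.9 CPM in NT, and the 20 called had 13.7 to 444.6 CPM, so reads were fewer behind many of those without a call and a difference there was less detectable at this depth. Of the 50 calls, 11 held in every alternative analysis run: SQLE, LBR and FDFT1 in both CNOT4 and ZFP36L1, ACLY in CNOT4, and FDPS, HMGCS1, INSIG1 and SCD in ZFP36L1. These 11 calls lay in the arms with fewer T positions per read than NT.

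Among 24 other genes of lipid synthesis and sterol handling, 6 were lower and 4 higher in ZFP36L1, 6 lower and 2 higher in CNOT4, 2 lower and 1 higher in ZMAT5, 1 higher in MAZ, 1 higher in ZMAT3, and none was called in BRCA1, PHF7 or ZNF706. Over all genes, 18.3% were lower and 21.7% higher in ZFP36L1, 13.5% each way in CNOT4, and 4.22% lower and 5.29% higher in ZMAT5. In MAZ 5.19% of all genes were higher, and in ZMAT3 5.49%. TECR, the last reductase of very-long-chain fatty-acid elongation, rose by log2 1.69 in ZFP36L1 (77.1 ± 10.1 CPM, against 24.6 ± 11.2 in NT, edgeR adjusted p = 1.13e-09) and by 1.44 in CNOT4, with 73.4% of its reads multimapped. SLC25A1, the mitochondrial citrate carrier that supplies ACLY, rose by 1.09 in ZFP36L1 and by 1.19 in CNOT4 (83.7 ± 19.2 CPM, against 36.4 ± 9.54 in NT), where ACLY was lower. NPC2, which hands cholesterol out of lysosomes, fell by 0.56 in ZFP36L1 and by 0.60 in CNOT4. ACSL4, which activates polyunsaturated fatty acids, rose by 1.16 in ZMAT5 (71.8 ± 9.30 CPM, against 34.3 ± 18.0 in NT, adjusted p = 0.000725), the arm with the largest FADS1 value. Of 7 genes of sterol efflux and LXR, a receptor that senses sterols and induces efflux genes and SREBF1, 1 was higher in each of CNOT4, MAZ, ZFP36L1 and ZNF706 and none was lower. Higher over all genes were 13.5% in CNOT4, 5.19% in MAZ, 21.7% in ZFP36L1 and 2.85% in ZNF706.

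Decay was read as the loss of T>C conversions over the chase, tested by edgeR on conversions with T coverage as offset, and 25 of 33 members were over 5 CPM often enough to be tested in each knockdown. One member, MSMO1, was called in 2 knockdowns, PHF7 and ZMAT3, as slower, and no other member was called. Over all genes tested, decay was called for 0.307% in PHF7, 0.573% in ZMAT3, 0.0815% in ZFP36L1, 0.0684% in ZMAT5, 0.0579% in CNOT4, 0.0402% in MAZ, 0.0136% in ZNF706 and 0% in BRCA1. Per knockdown, 1 or 2 of the 25 members had an unadjusted edgeR p under 0.05, as did 509 to 842 of 6914 to 7499 genes.

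MSMO1, the sterol methyl oxidase that removes methyl groups from the ring and is counted almost wholly on chromosome 4 at 165341945 to 165343160 (plus strand), had little label left at 4 h in NT. At 0 h the conversion rate in the 3 replicates was 4.41, 2.71 and 2.70% of covered T positions in PHF7 and 5.62, 3.99 and 4.90% in ZMAT3, against 3.49, 1.89 and 1.79% in NT. At 2 h it was 2.11, 2.88 and 1.85% in PHF7 and 3.34, 3.12 and 2.26% in ZMAT3, against 2.19, 1.44 and 0.644% in NT. ZMAT3 libraries were above every NT library at both times, and PHF7 libraries overlapped NT. At 4 h it was 1.36, 1.23 and 1.01% in PHF7 and 1.495, 1.66 and 1.89% in ZMAT3, against 0.00333, 0.211 and 0.117% in NT. At 8 h it was 0.267 and 0.416% in the 2 PHF7 libraries with MSMO1 reads and 0.494, 0.828 and 0.340% in ZMAT3, against 0, 0.00540 and 0.00646% in NT. At 4 and 8 h every PHF7 and ZMAT3 library with reads was above every NT library. Label pooled over 3632 genes, those over 5 CPM in every library but the shallow one, was also higher in these arms. The pooled rate at 0, 2, 4 and 8 h was 2.21, 2.07, 1.53 and 0.814% in PHF7 and 2.96, 2.74, 1.98 and 1.23% in ZMAT3, against 1.78, 1.42, 1.11 and 0.69% in NT. The PHF7 mean at 8 h includes the shallow library. Over all genes the PHF7 libraries at 8 h had 0.910, 0.864 and, in the shallow one, 0.388%.

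The decay rate, the loss of ln label per h, differed from NT by −0.544 per h in PHF7 (SE 0.117, edgeR adjusted p = 0.0293) and by −0.556 per h in ZMAT3 (SE 0.109, adjusted p = 0.0127), where a negative difference means slower decay in the knockdown. In the other 6 knockdowns the difference was −0.372 to −0.523 per h and did not pass (lowest adjusted p 0.153), and all 8 share the NT libraries. The NT value at 8 h rested on 2 conversions in 49934 T positions, and the library with 0 conversions in 15930 positions allows a rate of up to 0.0188%, counting error only. The PHF7 value was the same without the shallow library (adjusted p = 0.0286). With conversions set relative to the pooled rate of each library, both calls held, at −0.537 per h in PHF7 (adjusted p = 0.029) and −0.549 per h in ZMAT3 (adjusted p = 0.0118). Neither call held with the 0 to 4 h libraries alone (adjusted p = 0.747 in PHF7 and 0.984 in ZMAT3) or with limma on log2 rates (0.0615 and 0.0512). Without replicate 1, 2 or 3 the edgeR adjusted p in ZMAT3 was 0.0619, 0.147 and 0.0734, and without replicate 3 it was 0.115 in PHF7. Without replicate 1 or 2 MSMO1 was not testable in PHF7, as the shallow library had no MSMO1 read. MSMO1 level was called in neither (log2 −0.05 in PHF7 and 0.40 in ZMAT3).

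SQLE, the member with most calls for level, had a decay rate difference of −0.11 per h in PHF7, the lowest of the 8 knockdowns, −0.06 per h in ZMAT3 and 0.04 per h in ZFP36L1, the highest, with no call (lowest adjusted p 0.51). In libraries labeled CNOT4, where its level was lowest, the difference was −0.04 per h (SE 0.0978), from 10382 to 34465 covered T positions per chase time. SQLE was therefore called for level in 7 arms and for decay in none.

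**Figure D4:**
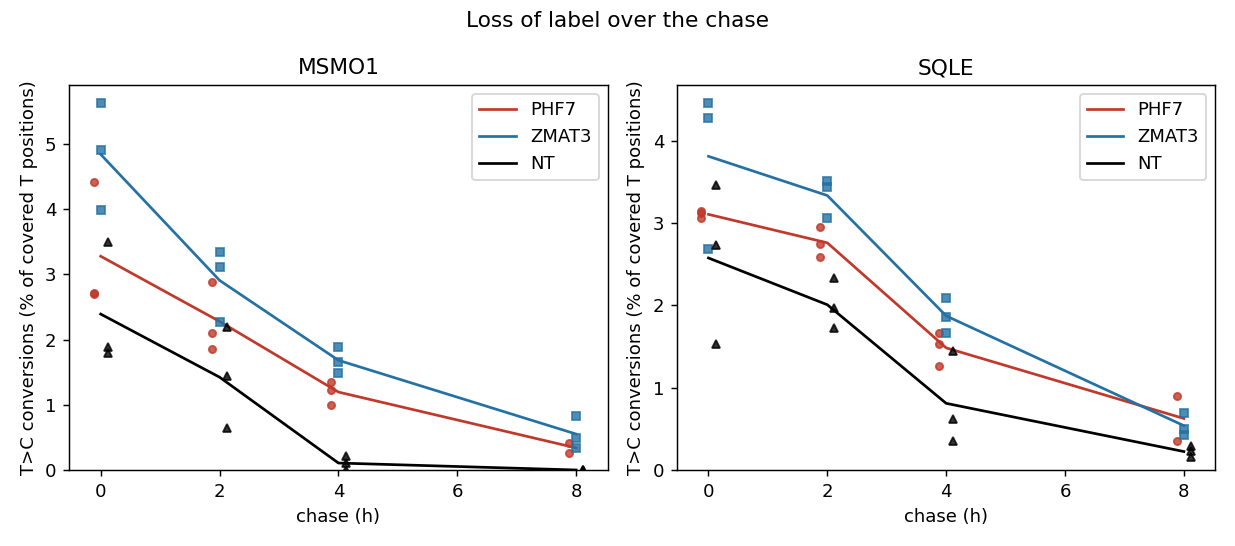
T>C conversions as a percentage of covered T positions against hours of chase for MSMO1 (left) and SQLE (right), with 1 point per library of PHF7 (circles), ZMAT3 (squares) and NT (triangles) and lines through the means of the replicates. At 4 and 8 h the MSMO1 points of PHF7 and ZMAT3 lie above those of NT, which reach 0 at 8 h.

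Label at 0 h, after 24 h of 4SU, was set relative to the pooled rate of the library and compared with NT in the same 25 members. No member was called in any knockdown by edgeR, where 0% of genes were called in BRCA1, MAZ, PHF7, ZMAT3, ZMAT5 and ZNF706, 0.0145% in CNOT4 and 0.0407% in ZFP36L1. Per knockdown, 0 to 3 members had an unadjusted edgeR p under 0.05, as did 264 to 815 of 6914 to 7499 genes. SQLE had the relative label log2 0.84 in CNOT4 (SE 0.342, adjusted p = 0.92) and −0.47 in BRCA1 (SE 0.352, adjusted p = 1). Over the members together, the conversion rate at 8 h was 28.8% to 40.4% of that at 0 h across the 8 knockdowns and 35.5% in NT, while over all genes of the pooled rate it was 32.5% to 46.6% across the knockdowns and 38.8% in NT.

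The chase itself starts with fresh medium, so levels in NT were compared between 8 h and 0 h. No member was called, and 0% of 12126 genes were. An unadjusted edgeR p under 0.05 was seen for 2 of 33 members, INSIG1 and SQLE, and for 615 of the 12126 genes. INSIG1 had 76.7, 106.4 and 66.9 CPM at 8 h, against 134, 126.8 and 183.6 at 0 h, and the groups did not overlap (log2 −0.83, SE 0.268, edgeR adjusted p = 0.853). SQLE had 262.8, 134.7 and 138.9 CPM at 8 h, against 118.6, 95.4 and 102.8 at 0 h, again with no overlap (log2 0.76, SE 0.321, adjusted p = 0.951). Of the 33 members, 24 were below 0, against 50.7% of all genes, and the median was log2 −0.21, against −0.01 over all genes. INSIG1 and SQLE thus lay on opposite sides in the same NT libraries, with neither difference passing over all genes.

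Whether the difference from NT depended on chase time was tested with the 3 arm-by-time terms. No member passed by edgeR in any knockdown, where 0.0157% of genes were called in BRCA1, 0.571% in CNOT4 and 0% in the other 6. Per knockdown, 1 to 3 members had an unadjusted edgeR p under 0.05, as did 636 to 1161 of 12735 to 13398 genes. INSIG1 had an unadjusted p under 0.05 in all 8 knockdowns, between 0.00017 in ZMAT3 and 0.0211 in CNOT4, with adjusted p of 0.337 to 0.931. All 8 rest on the same NT libraries, with 206.3, 210.7 and 167.6 CPM at 2 h and 137.5, 202.5 and 104.9 CPM at 4 h.

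Half-lives followed the methods of the study and were obtained for 15 members in NT. Among these 15 they were shortest for MSMO1 (1.72 h) and INSIG1 (1.80 h), between 2.70 and 2.95 h for NSDHL, HMGCS1 and SQLE, and longest for LBR (7.55 h), FADS1 (10.7 h) and FASN (12 h). FDPS and EBP, with 102% and 80.2% of label left at 8 h against 67.4% for FASN, missed the R2 minimum. ELOVL6 and LSS, with 7.12% and 14.7% left, missed it too (R2 0.267 and 0.554). The ranking therefore leaves out members with flatter curves and also members with label loss that the curve fitted poorly. The member median was 4.39 h, against 3.27 h over 5544 mRNAs, and 17.0% of all mRNAs had a shorter half-life than MSMO1 and 96.2% a shorter one than FASN. By role, the NT medians were 7.57 h for 4 fatty-acid members, 4.26 h for 3 mevalonate members, 3.51 h for 6 squalene and sterol members and 3.83 h for 2 control members. Each value is a single curve through replicate means, and curves through single replicates were spread: in NT they gave 1.70, 2.20 and 1.25 h for MSMO1, 3.71, 1.21 and 1.68 h for INSIG1 and 3.20, 3.66 and 1.92 h for HMGCS1. Only 1 replicate gave a curve for FADS1 (6.06 h) and FASN (6.48 h), both shorter than the value from the means.

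Over the 9 arms, 28 members had a half-life in at least 1 arm and 7 in all 9. MSMO1 ran from 1.72 h in NT to 3.07 h in MAZ, SQLE from 1.51 h in CNOT4 to 4.76 h in BRCA1, LBR from 3.37 h in CNOT4 to 7.55 h in NT and HMGCS1 from 2.84 h in BRCA1 to 5.26 h in PHF7. For SQLE in CNOT4, curves through single replicates gave 1.59, 2.36 and 0.0754 h. SQLE label left at 8 h was 9.82% in CNOT4, against 8.81% in NT. The median log2 ratio of half-life in the knockdown to that in NT was 0.53 in ZMAT3 (14 members, 10 longer), 0.52 in PHF7 (14, 11 longer), 0.50 in CNOT4, ZMAT5 and ZNF706 (12, 11 and 13 members), 0.42 in MAZ (13), 0.31 in ZFP36L1 (15) and 0.19 in BRCA1 (12). The share of all mRNAs with a longer half-life than in NT was 82.4% in ZMAT3 and 78.3% in PHF7. Over all mRNAs the same medians were 0.54 in ZMAT3, 0.46 in PHF7, 0.23 in CNOT4, 0.37 in ZMAT5, 0.27 in ZNF706, 0.33 in MAZ, 0.14 in ZFP36L1 and 0.02 in BRCA1. The SD of the member median over the 3 replicate-wise curves was 0.171 to 1.7, larger than the gap between members and all mRNAs in 7 of 8 knockdowns. The sign of the member median turned in some alternatives: in CNOT4 (−0.407 over 20 CPM, −0.661 without replicate 1 and −0.579 without replicate 3), in BRCA1 (below 0 in 5 of 6, down to −0.0983), in ZFP36L1 (−0.0822 with no R2 minimum) and in PHF7 (−0.205 without replicate 1).

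**Figure D5:**
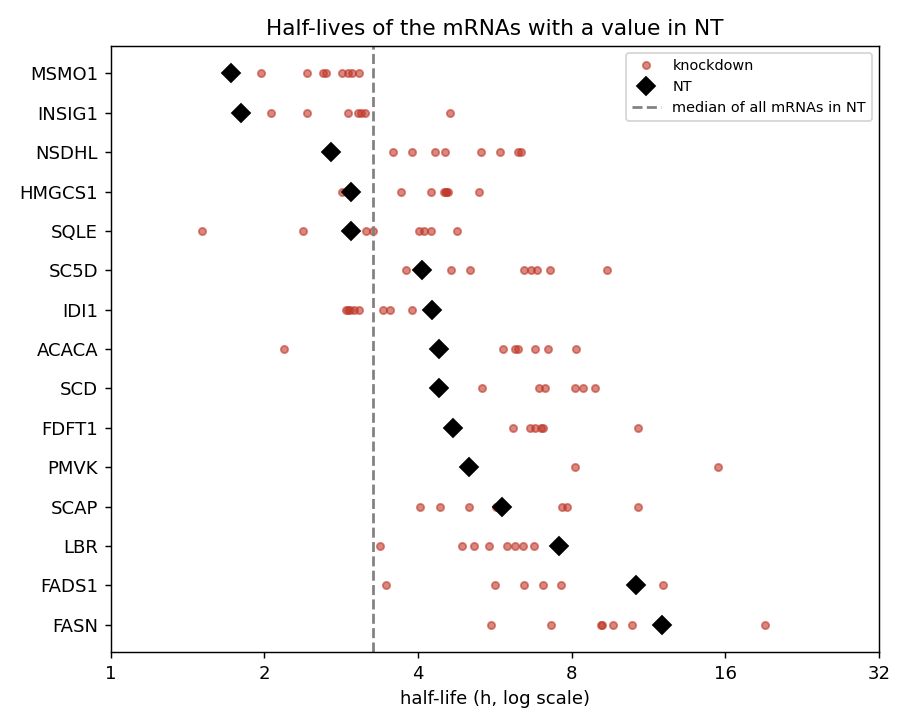
Half-life in hours (log axis) of the 15 members with a value in NT (diamonds), with 1 red point for each knockdown that gave a value and a dashed line at the NT median of all mRNAs, 3.27 h. Among these 15, MSMO1 and INSIG1 are the shortest in NT, and FADS1 and FASN the longest. Members that missed the R2 minimum in NT are absent.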

How the data were processed

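SLAM-seq 3′ libraries of 9 arms were analyzed. Per the file headers and the labels, the authors ran SlamDunk 0.4.3 on hg38, kept multimapping reads, and deposited 1 table per library with raw counts of reads, covered T positions and T>C conversions in 69079 3′ UTR intervals, the fraction of covered T positions converted, and reads in CPM of all reads that SlamDunk kept. For the variant mask, trimming and strand setting, no value is given in the sources used here. Intervals were summed to 19761 genes, 19501 of them named by GENCODE 44. Multimapped reads are counted in the total, so genes with near-identical copies are uncertain.

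Levels were tested with edgeR 4.0.16 (quasi-likelihood, TMM, filterByExpr) in R 4.3.3, 12 libraries of a knockdown against 12 of NT, with chase time as a factor, as was the arm-by-time term. Decay and label at 0 h were tested on conversions with the log of covered T positions plus 0.5 as offset, where 2 or more replicates at every time exceeded 5 CPM. In decay, PHF7 8 h replicate 3, which had no MSMO1 read, stayed in the fit. P-values were adjusted by Benjamini-Hochberg over all genes tested. Half-lives were first-order fits with R2 over 0.6. Alternatives used limma 3.58.1 and DESeq2 1.42.0. Joins and fits of half-lives used Python 3.11.15, numpy 2.4.6 and pandas 2.3.3. The tests of level, decay and label at 0 h were also run on simulated counts, for MAZ against NT only. NT label as low as that of MSMO1 at 8 h was not among the settings simulated. Same-numbered replicates of knockdown and NT did not deviate together, so the fits carry no block.

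The members and the other gene lists were chosen with earlier results of these data known. Named members are the 4 called for level in most knockdowns, those called for decay, the called members with the 6 smallest p per knockdown with full statistics, and the other called members by log2 value. INSIG1 and SQLE in the NT chase, and SQLE in decay and label at 0 h, were named after their values were seen.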

Additional observations from a re-analysis of the deposited data

How the results depend on the processing

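All 50 level calls held with DESeq2. They also held without the fold minimum, but that setting only loosens the threshold and could not remove a call. It is counted among the alternative analyses above, so each of those counts includes an alternative that held by design. Of the 50, 36 lost the call with the 0 h libraries alone, 21, 16 and 13 without replicates 1, 2 and 3, 14 without the 8 h libraries, 14 with the BRCA1 libraries as the comparison, 4 without the low-count filter, 1 of 49 with uniquely mapped reads and 1 of 15 without libraries under 2000000 reads. The causes were not tested, except that fewer libraries entered several of these fits. With the 0 h libraries alone, 9 members were called in ZFP36L1, 4 in CNOT4 and 0 in MAZ, PHF7, ZMAT3, ZMAT5 and ZNF706. Over all genes there, 773 were higher and 898 lower of 11962 in ZFP36L1, and 642 and 821 of 11774 in CNOT4. In MAZ, PHF7, ZMAT3, ZMAT5 and ZNF706, 10 to 47 were higher and 27 to 164 lower, of 11771 to 12364 genes. NSDHL in ZFP36L1 turned to log2 −0.0424. Against the mean of the other 7 knockdowns, 17 members were called in CNOT4, 14 in BRCA1 (11 higher), 9 in ZMAT5 and 8 in PHF7. Over all 14962 genes in that fit, 3773 were higher and 3072 lower in CNOT4, and 1259 and 1418 in BRCA1. In ZMAT5 these counts were 1587 and 1218, and in PHF7 1601 and 1184. Against that mean, 11 calls changed sign: SQLE to 0.36 in ZMAT5, 0.29 in PHF7, 0.19 in MAZ, 0.15 in ZMAT3 and 0.0718 in ZNF706, LBR to 0.0478 in MAZ and 0.0036 in ZMAT3, FDFT1 to 0.0162 and FDPS to −0.0282 in MAZ, SCD to 0.0140 in ZMAT5 and ACLY to 0.0125 in ZNF706. With the BRCA1 libraries as the comparison 2 members were called in PHF7, where 673 of 13258 genes were higher and 622 lower. Without the 8 h libraries 1 was called in ZNF706, where 234 of 12788 genes were higher and 182 lower. Leaving out 1 replicate gave 7 to 11 calls in CNOT4, 2 in MAZ, 0 to 4 in PHF7, 15 to 16 in ZFP36L1, 3 to 4 in ZMAT3, 2 to 3 in ZMAT5 and 1 to 2 in ZNF706. Over all genes these fits called 824 to 1833 higher and 1010 to 1844 lower in CNOT4, and 2270 to 2560 and 1860 to 1990 in ZFP36L1. They called 271 to 337 higher and 229 to 295 lower in MAZ, 74 to 624 and 176 to 580 in PHF7, and 283 to 377 and 358 to 415 in ZMAT3. In ZMAT5 the counts were 351 to 366 and 321 to 325, and in ZNF706 135 to 282 and 125 to 248. For decay, leaving out 1 replicate gave 0 calls in PHF7 and ZMAT3, where in PHF7 MSMO1 was tested only without replicate 3.

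Decay calls fell to 0 in PHF7 and ZMAT3 with limma and with 0 to 4 h alone. Without replicate 1 or 2, MSMO1 could not be tested for decay in PHF7, since the shallow 8 h library held no MSMO1 read. As absolute rates, label at 0 h was called for 10 members in MAZ and 9 in ZMAT3, counts given without a share over all genes. The pooled rate at 0 h was itself 2.9% in MAZ and 2.96% in ZMAT3, against 1.78% in NT, so these calls are not particular to the members. The deviations of same-numbered replicates correlated at −0.0205 to 0.0179, and 8 of 24 sets correlated best with their own number. With the replicate block, SQLE in PHF7 lost its level call (log2 −0.62, edgeR adjusted p = 0.0537), decay calls in PHF7 fell to 0, and no other call changed. The median half-life shift without an R2 minimum was −0.0214 in BRCA1, −0.0822 in ZFP36L1, 0.193 in ZMAT3 and 0.136 in ZNF706. With a straight line it was −0.0764 in BRCA1, 0.0716 in MAZ and 0.0127 in ZFP36L1, and over 20 CPM it was −0.0429 in BRCA1, −0.407 in CNOT4, 0.0697 in ZFP36L1 and 0.109 in ZNF706. Leaving out 1 replicate, the shift was −0.0983 to 0.391 in BRCA1, −0.661 to 0.336 in CNOT4, 0.261 to 0.479 in MAZ, −0.205 to 0.765 in PHF7, 0.161 to 0.482 in ZFP36L1, 0.0286 to 0.611 in ZMAT3, 0.175 to 0.62 in ZMAT5 and 0.0143 to 0.272 in ZNF706. Depth limited members with few reads, such as SREBF1 and STARD4, each without a read in 2 of 12 NT libraries.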
